A study of Mus musculus with 17 samples.

Results

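Hedgehog signalling genes were followed in mouse embryonic stem (ES) cells in which a forkhead transcription factor had been switched on. The set holds 9 genes of the 53693 in the deposited tables: the ligands Shh, Ihh and Dhh, the receptor Ptch1, the ligand-binding protein Hhip, the transducer Smo and the transcription factors Gli1, Gli2 and Gli3. They were chosen by name, with earlier results of these data known, and not by a threshold on a measured value. The question was whether the genes that Hedgehog signalling is known to raise followed Shh in the FoxA1 cells. The data were 17 RNA-seq libraries from 5 lines, each named for the factor it carries (iFoxA1, iFoxC1, iFoxG1, iFoxL2, iFoxP3). At 24 h after removal of doxycycline (Dox) there were 3 libraries of iFoxA1 and 2 of each other line, and at 0 h there were 2 of iFoxA1 and 1 of each other line. All lines descend from MC1 ES cells of the 129S6/SvEvTac strain, and all hold at Rosa26 a puromycin resistance gene and the coding sequence of the factor, tagged with His6-FLAG at its C-terminus, under control that Dox represses. The 24 h cells had been rinsed free of Dox and moved to differentiation medium with 10% serum, whereas the 0 h cells were in ES medium with 15% serum, 1000 U/ml LIF, 0.2 µg/ml Dox and 1.0 µg/ml puromycin. Within a line, the new medium and the removal of Dox therefore cannot be told apart, and the samples include no cells lacking a transgene. The labels do not say whether a line is 1 clone or whether replicates were separate cultures, so the p-values given reflect library-to-library spread, which may be technical.

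Hedgehog ligands are secreted proteins that bind Ptch1, a membrane protein which holds Smo inactive while no ligand is bound. Bound Ptch1 releases Smo, which acts through the primary cilium to turn Gli2 and Gli3 from repressors towards activators. The best-known genes raised by this signal are Gli1, Ptch1 and Hhip, of which the last 2 feed back to limit it. In the mouse embryo Shh is made by the node, notochord, floor plate and gut endoderm, and Ihh by the visceral endoderm.

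In iFoxA1 at 24 h, Shh was high, Ptch1 and Hhip stood above every 24 h library of the other lines, and Gli1 stood below every one of those 8 libraries. Shh averaged 41.9 ± 29.7 CPM (read counts scaled to a common library total, adjusted by TMM), Ptch1 193.1 ± 14.1, Hhip 1.35 ± 0.30 and Gli1 2.14 ± 1.31 CPM in iFoxA1 at 24 h (SD, n = 3), against 0.22 ± 0.32, 75.5 ± 34.4, 0.15 ± 0.08 and 7.26 ± 2.06 CPM in the 4 other lines at 24 h (SD, n = 8). Of the 9 genes, 4 were higher and 1 was lower in iFoxA1 than in the mean of the other lines (adjusted p under 0.05, quasi-likelihood test of edgeR, Benjamini-Hochberg adjusted over the 19819 genes that passed the filter on low counts). The same test called 15.1% of all genes tested, 8.88% higher and 6.25% lower. All 9 genes passed that filter.

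Library totals ran from 17.7 to 37.2 M estimated counts. The 5 libraries over 30 M counts, all at 24 h, were the third iFoxA1 library and the second of each other line, and in these the gene with the highest TPM was Mir6236. The labels name no batch, so they are called deeper here only for their totals. Foxa1 checked the iFoxA1 label: it stood at 236.5, 252.3 and 76.7 CPM in iFoxA1 replicates 1, 2 and 3 at 24 h, and at 1.87 and 3.05 CPM in iFoxA1 at 0 h. The highest Foxa1 level in another line was 0.49 CPM. At 24 h the deeper iFoxA1 library had the least Foxa1 of its group. The deeper iFoxL2 library had 11.5 CPM of Foxl2 against 149.3 CPM in replicate 1 of that line. Both are called low-transgene libraries here, although levels summed per gene do not separate the transgene from the endogenous gene. The summed level of 10 ES cell markers, none at 0, was 6301 and 6478 CPM in these low-transgene libraries, from 2936 to 4593 CPM in the 9 other libraries at 24 h, and from 5213 to 6626 CPM at 0 h. In iFoxA1 at 24 h, set against the other lines, where 15.1% of all genes tested were called, 0 of these 10 markers were higher and 2 lower, and of 9 tested fibroblast markers 2 were higher and 2 lower, with a summed level over all 10 of 16.2 to 23.2 CPM in iFoxA1 against 5.93 to 35.9 CPM in the other lines.

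**Figure D1:**
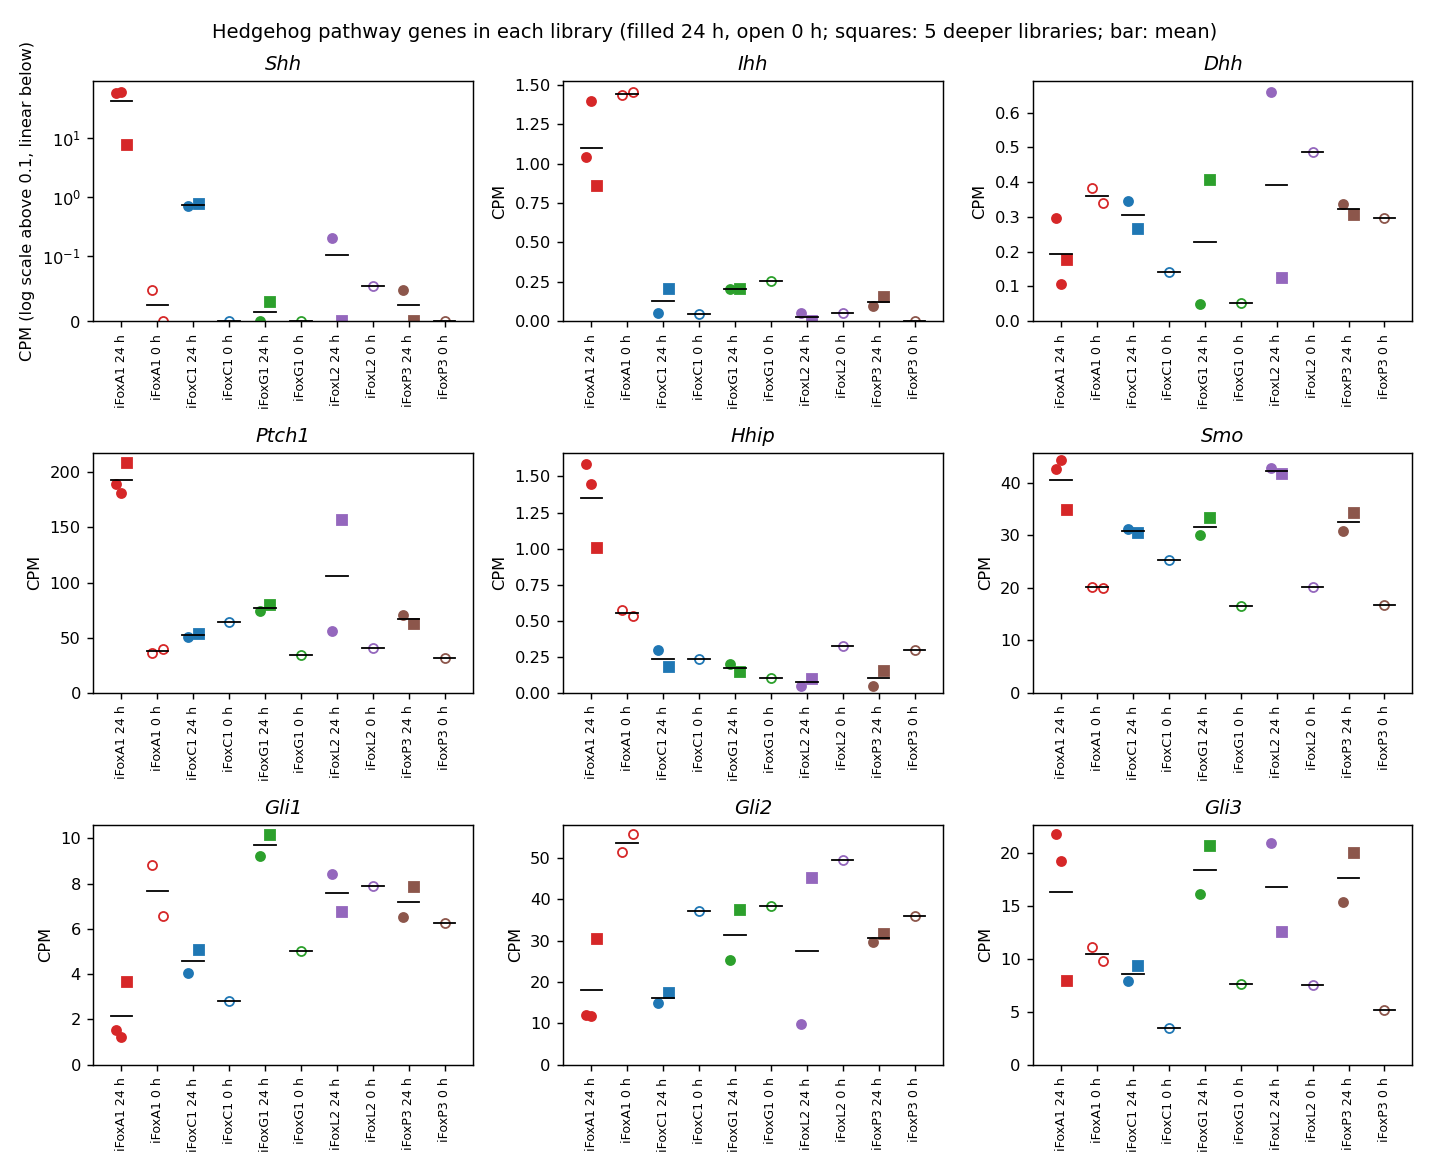
Level of the 9 genes in each of the 17 libraries, in CPM on linear axes except for Shh, whose axis is logarithmic above 0.1 CPM; filled symbols are 24 h, open symbols 0 h, squares the 5 deeper libraries and bars group means. Shh, Ptch1 and Hhip are highest and Gli1 is lowest in iFoxA1 at 24 h, and Ihh is high in iFoxA1 at both times.

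Shh, the ligand of node, floor plate and gut endoderm (ENSMUSG00000002633.4, minus strand of chromosome 5, 28456815 to 28467256 in mm10), had 58.6, 59.5 and 7.63 CPM in iFoxA1 at 24 h, from 1181, 1107 and 258 counts. At 0 h the line had 1 count and 0 counts. The deeper library, which also had the least Foxa1, held the lowest Shh of the 3, yet all 3 stood far above the 0 h libraries. Between 24 h and 0 h Shh rose by 10.48 ± 1.57 on the log2 scale in iFoxA1 (SE, adjusted p = 0.00306, edgeR). The size of that rise rests on the 1 count at 0 h, and the adjusted p was 0.0545 without iFoxA1 0 h replicate 2. On the scale that corrects for length, Shh reached 36.5, 36.3 and 2.53 TPM in iFoxA1 at 24 h, all from its single annotated transcript. TPM is not level between the library sets, so the gap to the deeper library is better read in CPM. Smo, for example, had 42.6 CPM and 16.5 TPM in replicate 1 but 34.8 CPM and 7.93 TPM in replicate 3.

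The other lines had little Shh. In iFoxC1 at 24 h it had 14 and 26 counts (0.69 and 0.77 CPM), against 0 counts in iFoxC1 at 0 h, which is at least 5.201-fold higher with the floor set at 3 counts. In iFoxL2 there were 4 and 0 counts at 24 h, against 1 count at 0 h. iFoxG1 had 0 and 1 counts and iFoxP3 1 and 0 counts at 24 h, and neither had a count at 0 h. The order at 24 h was iFoxA1, then iFoxC1, which did not overlap, then iFoxL2, iFoxP3 and iFoxG1, whose ranges overlapped. Against the mean of the 4 other lines, Shh was higher in iFoxA1 at 24 h by 9.06 ± 0.76 on the log2 scale (adjusted p = 8.91e-05, edgeR). The summed counts, 2546 in iFoxA1 against 46 in the other lines, gave a ratio of 162.7 after scaling (95% exact counting interval 121.6 to 222.8, which covers counting error only). The difference between the iFoxA1 change and those of the other lines could not be estimated by edgeR for Shh, because the other lines together held 1 count at 0 h. DESeq2 gave 8.50 ± 2.15 (adjusted p = 0.00221), a value that rests on the same counts.

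Ihh, the ligand of visceral endoderm (ENSMUSG00000006538.12, minus strand of chromosome 1, 74945315 to 74951672), was present in iFoxA1 before Dox was removed. It had 1.04, 1.397 and 0.86 CPM in iFoxA1 at 24 h, against 1.435 and 1.452 CPM in iFoxA1 at 0 h, a change that did not pass the test (log2 change -0.40 ± 0.62, adjusted p = 0.766, edgeR). No other library exceeded 0.26 CPM. Foxa1 was also present in iFoxA1 at 0 h, at 1.87 and 3.05 CPM, while the 0 h libraries of the other lines had 0.05 to 0.28 CPM. That difference passed the test (log2 difference 4.62 ± 0.72, adjusted p = 0.02, edgeR), so these 0 h cells were not free of Foxa1. At 0 h Ihh was the 1 gene of the 9 called between iFoxA1 and the other lines (log2 difference 4.99 ± 0.73, adjusted p = 0.0154, edgeR), where 1.56% of all genes tested were called (1.19% higher). The call rests on few libraries: the adjusted p was 0.136 and 0.135 without iFoxA1 0 h replicate 1 or 2, and 0.0515 without the iFoxP3 0 h library. At 24 h the difference was 3.46 ± 0.48 (adjusted p = 0.00143, edgeR). In counts, Ihh had 60 in iFoxA1 against 7 in the other lines at 0 h, a scaled ratio of 16.3 (95% counting interval 7.46 to 42.4), and 76 against 27 at 24 h, a ratio of 8.28 (5.27 to 13.4).

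Markers of the tissues that make these ligands were read beside them. Of 17 visceral and primitive endoderm markers tested, 10 were higher and 0 lower in iFoxA1 at 0 h, set against the other lines, with a median log2 difference of 3.88, against 0.05 over all genes tested, of which 1.19% were higher. Gata6, a transcription factor of primitive endoderm, had 11.6 and 13.5 CPM in iFoxA1 at 0 h against 0.43 to 0.98 CPM in the other lines (log2 difference 4.10 ± 0.24, adjusted p = 0.000172, edgeR), and Cubn, an endocytic receptor of visceral endoderm, had 56.3 and 56.8 CPM against 0.14 to 0.93 CPM (6.96 ± 0.55). At 24 h 13 of the 17 were higher and 0 lower, beside 8.88% and 6.25% of all genes tested. Within iFoxA1, 2 of the 17 rose and 1 fell from 0 h to 24 h, beside 6.62% and 4.14% of all genes tested. Their median log2 change was 0.52 in iFoxA1 and 2.11 in iFoxC1. In iFoxC1 5 of the 17 rose and 0 fell, where 9.7% of all genes tested were called. Ihh stayed low there, at 0.05 and 0.21 CPM at 24 h against 0.05 CPM at 0 h. Relative to the other lines' changes, 0 of the 17 were higher in iFoxA1 and 2 lower, where 3.09% of all genes tested were called. The summed level of all 18 listed markers was 465 to 783.3 CPM in iFoxA1 at 24 h against 397.2 to 646.5 CPM in the other lines, and 568.4 to 572.2 CPM in iFoxA1 at 0 h against 244.7 to 282.8 CPM in the other lines, where Afp was at 0. The part of the Foxa1 present at 0 h in the Ihh and marker differences was not tested. Nor was the part of these endoderm cells in the Ihh difference. In bulk libraries, fewer cells of a type and less RNA per cell cannot be told apart.

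Of 10 tested markers of tissues that make Shh, 8 were higher and 0 lower in iFoxA1 at 24 h, set against the other lines, with a median log2 difference of 2.33 against 0.01 over all genes, of which 8.88% were higher. They included Chrd, a BMP antagonist of node and notochord, at 8.69, 14.8 and 17.2 CPM in iFoxA1, in ascending order, against 1.12 to 5.05 CPM in the other lines (2.44 ± 0.20, adjusted p = 8.13e-05, edgeR), and Foxj1, a regulator of motile cilia in the node, at 26.2 to 40.8 against 4.86 to 20.4 CPM (1.89 ± 0.21). Within iFoxA1, 5 of the 10 rose and 0 fell, beside 6.62% and 4.14% of all genes tested. Their median log2 change was 2.35 in iFoxA1 and 2.09 in iFoxC1. In iFoxC1 1 of the 10 rose and 0 fell, where 9.7% of all genes tested were called. Relative to the other lines' changes, 2 of the 10 were higher in iFoxA1 and 0 lower, where 3.09% of all genes tested were called. The summed level of all 13 was 73.2 to 157.7 CPM in iFoxA1 at 24 h against 9.69 to 32.7 CPM in the other lines, and 16.5 to 18.8 CPM in iFoxA1 at 0 h against 8.29 to 9.43 CPM in the other lines. Among the defining notochord genes, T had a log2 difference of -0.44 ± 0.49 (adjusted p = 0.633), and Noto had 2 counts over all libraries, both in iFoxA1 at 24 h. Foxa2 and Sox17 are on the lists of both tissues, and the part of such cells in the Shh difference was not tested.

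Dhh, the ligand best known from testis and peripheral nerve (ENSMUSG00000023000.5, minus strand of chromosome 15, 98891152 to 98898540), was near the detection limit in all libraries. It had 0.30, 0.11 and 0.18 CPM in iFoxA1 at 24 h, against 0.05 to 0.66 CPM in the other lines, and it passed no test in any comparison between lines or times.

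Ptch1, the Hedgehog receptor (ENSMUSG00000021466.12, minus strand of chromosome 13, 63508328 to 63573598), had 189.2, 181.4 and 208.7 CPM in iFoxA1 at 24 h, against 35.8 and 39.8 CPM in iFoxA1 at 0 h. It rose within the line by 2.35 ± 0.36 on the log2 scale (adjusted p = 0.00321, edgeR), and without iFoxA1 0 h replicate 1 the adjusted p was 0.0546. At 24 h the other lines had 50.8 and 53.6 CPM in iFoxC1, 74.6 and 79.4 CPM in iFoxG1, 55.7 and 156.5 CPM in iFoxL2, and 70.8 and 62.4 CPM in iFoxP3. All 3 iFoxA1 libraries stood above these, and the log2 difference was 1.4 ± 0.23 (adjusted p = 0.00319, edgeR). It passed the test in each of the 17 fits that left out 1 library.

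Ptch1 was not high only where Shh was. The deeper iFoxL2 library, with the low transgene, had 156.5 CPM of Ptch1 and 0 counts of Shh. iFoxC1, the line with the second-highest Shh (0.69 and 0.77 CPM), had the lowest Ptch1 at 24 h. Within iFoxA1 the low-transgene library, with 7.63 CPM of Shh, had the highest Ptch1, 208.7 CPM. Among the 24 h libraries under 30 M counts, iFoxA1 had the highest Shh (58.6 to 59.5 CPM) and the highest Ptch1 (181.4 to 189.2 CPM). The other lines there had 0 to 0.69 CPM of Shh and 50.8 to 74.6 CPM of Ptch1. At 0 h the highest Ptch1 was 64.1 CPM in iFoxC1, with 0 counts of Shh, against 31.4 to 41.1 CPM in the 3 remaining lines outside iFoxA1. In the average over the 5 lines Ptch1 rose by 1.13 ± 0.20 (adjusted p = 0.00186, edgeR), 1 of 3 genes that rose of the 9, where 37.8% of all genes tested were called (21.7% higher). The change within each other line was 1.37 ± 0.46 in iFoxL2, 1.15 ± 0.46 in iFoxG1, 1.09 ± 0.46 in iFoxP3 and -0.30 ± 0.43 in iFoxC1, none past the test (adjusted p from 0.14 to 0.729). The iFoxG1 and iFoxP3 changes did pass without either iFoxL2 24 h library (adjusted p from 0.00256 to 0.0039), and the iFoxL2 change passed in DESeq2 (0.0227) and without iFoxL2 24 h replicate 1 (0.000981). The iFoxA1 change exceeded their mean by 1.52 ± 0.40, which missed the threshold (adjusted p = 0.0793, edgeR). Without iFoxL2 24 h replicate 1 or replicate 2 that adjusted p was 0.00141 and 0.000461, in DESeq2 it was 0.00259, and with the library set (deeper or shallower) as a term it was 0.031 (1.59 ± 0.36).

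Of 10 annotated Ptch1 transcripts, Ptch1-202 took 80.3% and Ptch1-201 17.3% of the estimated counts over all libraries. Ptch1-202 made up 68.6% to 77.6% of Ptch1 TPM in iFoxA1 at 24 h, against 74.2% to 86.8% in the other lines at 24 h, and these ranges overlap. The start sites of the 2 transcripts, 63564535 and 63565735, lie 1200 bases apart. The 250 bases before the start of Ptch1-201 are shown because Ptch1 is the 1 listed target that rose within iFoxA1, and those before Gli2, described below, because Gli2 alone among the 7 genes with a window had a match to the GLI core letters. Both are read from the RefSeq promoter table for GRCm38.p6 (the build also called mm10), which matched 7 of the 9 genes, not Shh and Gli1. The first lies at chr13:63565736-63565985 and the second at chr1:119053620-119053869, both on the minus strand and written 5′ to 3′, and capitals mark the match.
Ptch1: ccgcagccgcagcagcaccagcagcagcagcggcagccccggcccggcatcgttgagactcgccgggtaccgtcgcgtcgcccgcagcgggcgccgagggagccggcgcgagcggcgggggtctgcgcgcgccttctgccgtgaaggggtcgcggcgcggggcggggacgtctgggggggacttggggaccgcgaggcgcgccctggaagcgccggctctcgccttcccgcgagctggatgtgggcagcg
Gli2: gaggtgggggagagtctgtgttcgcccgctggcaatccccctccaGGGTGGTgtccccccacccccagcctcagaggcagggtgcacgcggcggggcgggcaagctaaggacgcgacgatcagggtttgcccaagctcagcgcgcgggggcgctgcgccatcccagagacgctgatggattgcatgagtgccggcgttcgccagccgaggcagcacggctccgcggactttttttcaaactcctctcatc
The GLI motif GACCACCCA, searched on both strands, was in 0 of the 7 members' windows and in 0.225% of the 32851 windows of the table. Its inner letters ACCACCC, which overlap it, were in 1 of 7 (Gli2, as GGGTGGT on the strand shown, with the first base 205 bases before the start) and in 3.92% of all windows. The forkhead motifs TGTTTAC and TGTTTGC, likewise searched on both strands, were in 0 of 7, and in 3.17% and 4.3% of all windows. These windows are short, and the search says nothing of elements elsewhere. For Ptch1 the window shown is not the one before Ptch1-202, the transcript with most of the counts.

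Hhip, a membrane protein that binds and retains the ligands (ENSMUSG00000064325.4, minus strand of chromosome 8, 79965851 to 80058006), had 1.59, 1.45 and 1.01 CPM in iFoxA1 at 24 h, against 0.57 and 0.53 CPM in iFoxA1 at 0 h. The 24 h libraries of the other lines had 0.30 and 0.18 CPM in iFoxC1, 0.20 and 0.15 CPM in iFoxG1, 0.05 and 0.09 CPM in iFoxL2, and 0.05 and 0.15 CPM in iFoxP3. The groups did not overlap, and iFoxA1 was higher by 3.28 ± 0.36 on the log2 scale (adjusted p = 0.000413, edgeR). In counts this was 93 in iFoxA1 against 31 in the other lines, a scaled ratio of 8.82 (95% counting interval 5.82 to 13.7). At 0 h, 23 counts in iFoxA1 against 19 in the other lines gave a ratio of 2.31 (1.20 to 4.48), which the test across libraries did not call (1.30 ± 0.50, adjusted p = 0.244, edgeR). Within iFoxA1 the 24 h level was 2.315 times that at 0 h (counting interval 1.45 to 3.83), and that change missed the threshold across libraries (1.27 ± 0.53 on the log2 scale, adjusted p = 0.168, edgeR).

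Gli1, the transcriptional activator used most often as a readout of Hedgehog signalling (ENSMUSG00000025407.7, minus strand of chromosome 10, 127329882 to 127341974), went the other way. It had 1.54, 1.24 and 3.64 CPM in iFoxA1 at 24 h, against 8.80 and 6.58 CPM in iFoxA1 at 0 h. The groups did not overlap and Gli1 fell by 1.83 ± 0.40 on the log2 scale (edgeR logFC -1.83, adjusted p = 0.0189). At 24 h the other lines had 4.07 and 5.07 CPM in iFoxC1, 9.22 and 10.2 CPM in iFoxG1, 8.44 and 6.74 CPM in iFoxL2, and 6.53 and 7.84 CPM in iFoxP3. iFoxA1 was lower by -1.69 ± 0.33 on the log2 scale (adjusted p = 0.00797, edgeR), and this difference passed the test in all 17 fits that left out 1 library. The call within the line was lost without iFoxA1 0 h replicate 1 (adjusted p = 0.155), without 0 h replicate 2 (0.0713) and without 24 h replicate 1 (0.0652).

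In no other line did Gli1 change by the test. Its log2 change was 0.71 ± 0.56 in iFoxC1, 0.94 ± 0.56 in iFoxG1, 0.20 ± 0.54 in iFoxP3 and -0.06 ± 0.53 in iFoxL2. The iFoxA1 change minus their mean, a test of the difference between changes, was -2.28 ± 0.49 (adjusted p = 0.0406, edgeR). It was the 1 call among the 9 genes, where 3.09% of all genes tested were called (1.7% lower). It is close to the threshold, and the adjusted p lay between 0.00172 and 0.228 in the 17 fits that left out 1 library, with 4 of them under 0.05. limma on log2(TPM + 1) gave -1.68 with an adjusted p of 0.081.

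**Figure D2:**
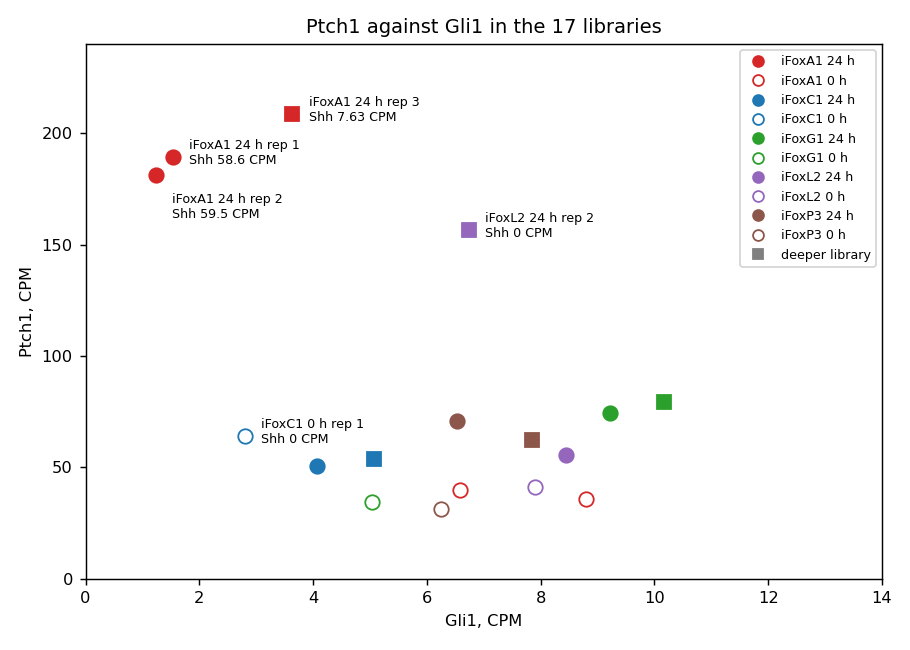
Ptch1 (vertical, CPM) against Gli1 (horizontal, CPM) in the 17 libraries, with colour for the line, filled symbols for 24 h, open symbols for 0 h and squares for the deeper libraries; Shh is written beside 5 libraries. The 3 iFoxA1 libraries at 24 h hold the upper left corner, at 181.4 to 208.7 CPM of Ptch1 and 1.24 to 3.64 CPM of Gli1, and the iFoxL2 library with 156.5 CPM of Ptch1 has no Shh count.

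Ptch1 and Gli1 usually move together under Hedgehog, so their ratio was read within each library. There were 123.1, 146.8 and 57.4 Ptch1 counts per Gli1 count in iFoxA1 at 24 h, against 4.07 and 6.05 in iFoxA1 at 0 h. In the other lines at 24 h the ratio had a lowest value of 6.61, a median of 9.33 and a highest value of 23.2, the last in the deeper iFoxL2 library. At 0 h it was 5.02 to 6.87 in iFoxP3, iFoxL2 and iFoxG1, and 22.9 in iFoxC1, which had both the highest Ptch1 and the lowest Gli1, 2.80 CPM, of its time.

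The split between the 2 targets held inside each library set. Among the libraries under 30 M counts, Gli1 was 1.24 to 1.54 CPM in iFoxA1 at 24 h against 4.07 to 9.22 CPM in the other lines, and Ptch1 was 181.4 to 189.2 against 50.8 to 74.6 CPM. Among the deeper libraries, the 1 iFoxA1 library had 3.64 CPM of Gli1 against 5.07 to 10.2 CPM, and 208.7 CPM of Ptch1 against 53.6 to 156.5 CPM. In iFoxA1 the deeper library, with the least Foxa1 and Shh, also had the highest Gli1 of the 3. Over the 5 lines, 0 of the 9 genes differed between deeper and shallower libraries at 24 h by edgeR and 2 had an unadjusted p under 0.05 (Gli2 and Shh), where 20.2% of all genes tested were called. DESeq2 called 1 of the 9 and limma 1.

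**Figure D3:**
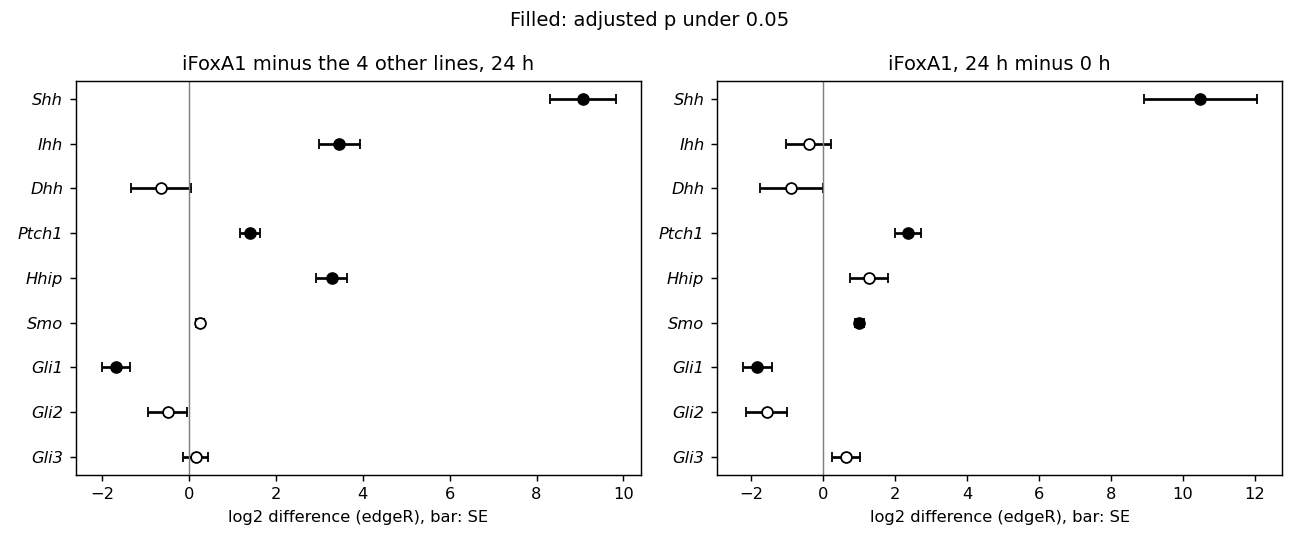
log2 difference with its SE for the 9 genes, iFoxA1 minus the mean of the 4 other lines at 24 h (left) and iFoxA1 at 24 h minus 0 h (right); filled points have an adjusted p under 0.05. Shh and Ptch1 lie right of 0 and Gli1 left of it in both panels, while Ihh and Hhip pass the test in the left panel alone.

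Within iFoxA1, 3 of the 9 genes rose and 1 fell between 24 h and 0 h, where 10.8% of all genes tested were called, 6.62% higher and 4.14% lower. The 5 genes called between lines at 24 h were also the 5 whose libraries did not overlap between iFoxA1 and the other lines, as was the case for 10.9% of all genes tested. The same 5 differed among the 5 lines at 24 h in the test over all lines at once (adjusted p = 0.000936 for Shh, 0.00382 for Hhip, 0.011 for Ihh, 0.0178 for Ptch1 and 0.034 for Gli1, edgeR), where 13.1% of all genes tested were called.

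Smo, the membrane protein that carries the signal into the cell (ENSMUSG00000001761.7, plus strand of chromosome 6, 29735503 to 29761365), stood higher at 24 h than at 0 h in all 5 lines. It had 42.6, 44.3 and 34.8 CPM in iFoxA1 at 24 h, against 20.2 and 19.99 CPM in iFoxA1 at 0 h, and 30.2 to 42.8 CPM in the other lines at 24 h, against 16.5 to 25.3 CPM at 0 h. Every 24 h library stood above its line's 0 h libraries in 5 of 5 lines. In the average over the 5 lines Smo rose by 0.85 ± 0.08 on the log2 scale (adjusted p = 4.69e-05, edgeR), where 21.7% of all genes tested rose. That average passed in all 17 fits that left out 1 library and in all 8 other alternatives, limma among them. Smo rose by 1.01 ± 0.13 on the log2 scale in iFoxA1 (adjusted p = 0.00157), 1.07 ± 0.18 in iFoxL2 (0.016), 0.96 ± 0.18 in iFoxP3 (0.0183) and 0.94 ± 0.18 in iFoxG1 (0.0182, all edgeR). In iFoxC1 the change was 0.28 ± 0.17 (adjusted p = 0.351). Smo was the 1 gene of the 9 called within iFoxG1, iFoxL2 or iFoxP3, where 5.63%, 4.24% and 6.04% of all genes tested were called, and none was called within iFoxC1, where 9.7% were. In iFoxC1 2 of the 9 had an unadjusted p under 0.05 (Gli3 and Shh), DESeq2 called 1 (Shh, adjusted p = 0.048) and limma 0. The calls in iFoxG1 and iFoxP3 were lost without either of the line's 24 h libraries (adjusted p from 0.0527 to 0.105) and without the filter on low counts (0.0557 and 0.056). With limma on log2(TPM + 1) Smo passed in none of the 5 lines, with a change of 0.75 in iFoxA1 (adjusted p = 0.312). Neither the level against the other lines at 24 h (0.25 ± 0.09, adjusted p = 0.106) nor the change relative to theirs (0.20 ± 0.15, adjusted p = 0.598) passed the test for iFoxA1, although without iFoxA1 24 h replicate 3 the first did (0.38, adjusted p = 0.0122).

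Gli2, which acts mainly as the activator (ENSMUSG00000048402.14, minus strand of chromosome 1, 118834132 to 119053619), was lower at 24 h than at 0 h in every line. It had 12.0, 11.7 and 30.4 CPM in iFoxA1 at 24 h, against 51.6 and 55.8 CPM in iFoxA1 at 0 h. In the other lines at 24 h it had 14.8 and 17.5 CPM in iFoxC1, 25.4 and 37.4 CPM in iFoxG1, 9.96 and 45.2 CPM in iFoxL2, and 29.7 and 31.5 CPM in iFoxP3, against 37.2, 38.4, 49.6 and 35.95 CPM in the same lines at 0 h. Yet the spread within groups was wide and neither of 2 changes passed the test: the log2 change was -1.57 ± 0.57 in iFoxA1 (adjusted p = 0.115) and -0.83 ± 0.32 in the average over the lines (adjusted p = 0.0686, edgeR). The deeper library had the highest Gli2 of its group at 24 h in every line. The gap was widest in iFoxA1 and iFoxL2, whose deeper libraries had the low transgene. The parts of library set and transgene level in this were not tested. Without iFoxA1 24 h replicate 3 the iFoxA1 change of Gli2 was -2.16 (adjusted p = 0.0393), and without iFoxL2 24 h replicate 1 or 2 its adjusted p was 0.0277 and 0.0281. DESeq2 called it as well (-1.58, adjusted p = 0.0265), as did edgeR with the library set as a term (adjusted p = 0.00763). The average over the lines passed in DESeq2 (adjusted p = 0.0187), with the library set as a term (0.00287) and without any 1 of those 3 libraries (0.00472 to 0.0411).

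Gli3, which acts mainly as the repressor (ENSMUSG00000021318.15, plus strand of chromosome 13, 15463235 to 15730026), went up on average. It had 21.8, 19.3 and 7.95 CPM in iFoxA1 at 24 h, against 11.1 and 9.78 CPM in iFoxA1 at 0 h. The low-transgene library was the 1 of the 3 below the 0 h level. In the other lines at 24 h Gli3 had 7.88 and 9.32 CPM in iFoxC1, 16.2 and 20.7 CPM in iFoxG1, 20.99 and 12.5 CPM in iFoxL2, and 15.3 and 20.02 CPM in iFoxP3, against 3.51, 7.66, 7.57 and 5.21 CPM at 0 h. The average log2 change over the 5 lines was 1.22 ± 0.24 (adjusted p = 0.00348, edgeR), and the change within iFoxA1 was 0.64 ± 0.40 (adjusted p = 0.371), or 0.99 without iFoxA1 24 h replicate 3 (adjusted p = 0.0427). Neither Gli2 nor Gli3 differed between iFoxA1 and the other lines at 24 h by the test (log2 difference -0.50 ± 0.44 and 0.15 ± 0.29).

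The balance of the 2 factors followed from this. In iFoxA1 at 24 h there were 1.82, 1.65 and 0.26 Gli3 counts per Gli2 count, and in iFoxL2 2.11 and 0.28, where the low value in each line belongs to the low-transgene library. The ratio was 0.52 to 0.64 in the other 3 lines at 24 h, and 0.09 to 0.22 in all 6 libraries at 0 h. The part of the transgene level in these values was not tested.

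On the TPM scale, which allows levels of different genes to be compared, Ptch1 was the highest of the 9 in iFoxA1 at 24 h in replicates 1 and 3, at 40.9 and 29.2 TPM, and Shh stood above it in replicate 2 (36.3 against 34.3 TPM). Gli1 was at 0.59, 0.49 and 1.03 TPM, below Gli2 at 2.50, 2.26 and 3.64 TPM. At 0 h in iFoxA1 the order began with Gli2, at 9.73 and 10.6 TPM, followed by Ptch1 at 7.43 TPM in both libraries and Smo at 7.38 and 7.34 TPM.

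**Figure D4:**
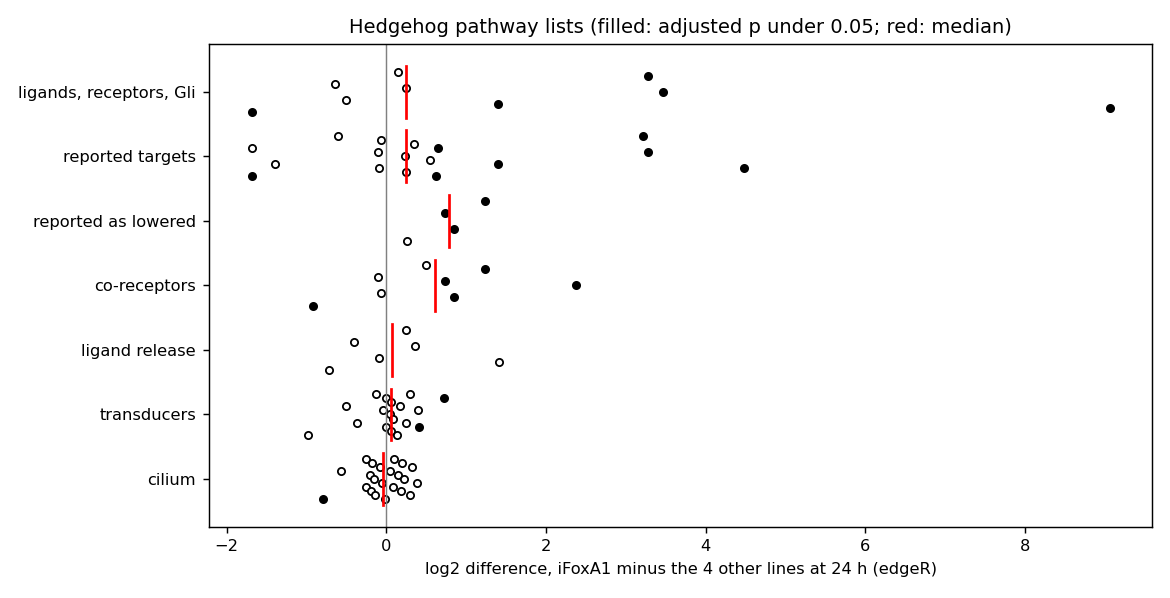
log2 difference, iFoxA1 minus the mean of the 4 other lines at 24 h, for each tested gene of 7 Hedgehog lists; filled points have an adjusted p under 0.05 and red bars are list medians. The target and co-receptor lists hold called genes on both sides of 0, and the medians of the transducer and cilium lists are 0.06 and -0.04.

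The wider pathway was read from lists of genes with known roles. Of 17 tested genes reported as Hedgehog targets, which include Gli1, Ptch1 and Hhip, 6 were higher and 1 was lower in iFoxA1 at 24 h, set against the other lines, with a median log2 difference of 0.24 against 0.01 over all genes, where 8.88% of all genes tested were higher and 6.25% lower. Of those 6, Foxa2, a floor plate and endoderm factor, had 1.61 to 4.05 CPM in iFoxA1 against 0 to 0.25 CPM in the other lines (4.48 ± 0.67, adjusted p = 0.00224, edgeR). Cdk6, a cell cycle kinase, was higher by 0.65 ± 0.10. Foxa2 was already at 2.32 and 2.39 CPM in iFoxA1 at 0 h. Within iFoxA1, where 6.62% of all genes tested rose and 4.14% fell, 1 of the 17 rose (Ptch1) and 2 fell: Gli1, and Sfrp1, a Wnt antagonist, to 4.96 to 13.9 CPM at 24 h against 53.0 and 54.5 CPM at 0 h (-2.73 ± 0.47, adjusted p = 0.00597, edgeR). Sfrp1 also fell in the average over the lines (-2.70 ± 0.26). The iFoxA1 change was above the other lines' mean change for 0 of the 17 and below it for 3, where 3.09% of all genes tested were called in either direction and 1.7% lower. Beside Gli1 these were the cyclins Ccnd1 (-1.26 ± 0.16, adjusted p = 0.00518) and Ccnd2 (-2.70 ± 0.43, adjusted p = 0.015), both of which stood higher in iFoxA1 at 0 h than in any other line, Ccnd1 at 125.4 and 133.7 CPM against 39.4 to 72.9 CPM and Ccnd2 at 5.55 and 6.39 against 0.33 to 0.99 CPM.

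Co-receptors at the cell surface moved in both directions. Of 8 tested, 4 were higher and 1 was lower in iFoxA1 at 24 h, set against the other lines, beside 8.88% and 6.25% of all genes tested. Cdon, which presents ligand to Ptch1 and is reported to be lowered by Hedgehog, had 32.7 to 34.1 CPM in iFoxA1 against 14.6 to 23.0 CPM in the other lines (0.85 ± 0.09, adjusted p = 0.000239, edgeR). It rose within iFoxA1 by 1.25 ± 0.13 (adjusted p = 0.000423) and more than in the other lines by 0.80 ± 0.15 (adjusted p = 0.0251). The co-receptor Gas1, likewise reported as lowered by the pathway, was higher in iFoxA1 at 24 h by 1.23 ± 0.29 (adjusted p = 0.0188), at 1.397 to 2.16 against 0.40 to 1.38 CPM. Gpc6, a glypican of the cell surface, was higher by 2.38 ± 0.64 (adjusted p = 0.0334), and its relative Gpc4 was lower, at 20.96 to 27.4 against 30.1 to 72.6 CPM (-0.92 ± 0.17, adjusted p = 0.00564). Of the 4 tested genes reported as lowered by Hedgehog, 3 were higher and 0 lower in iFoxA1 at 24 h (8.88% and 6.25% of all genes tested), and 1 of the 4 rose within the line (6.62% of all genes tested). These 3 are also on the co-receptor list.

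Genes that act inside the cell were read next. Of 18 transducers, 12 rose and 0 fell in the average over the 5 lines, with a median log2 change of 0.44 against 0.04 over all genes, where 37.8% of all genes tested were called and 21.7% rose. Sufu, which holds Gli proteins in the cytoplasm, rose by 0.74 ± 0.13 (adjusted p = 0.00198, edgeR), and Evc2, which passes the signal from Smo at the base of the cilium, by 0.59 ± 0.10. Between iFoxA1 and the other lines at 24 h, where 15.1% of all genes tested were called, 2 of the 18 were higher and 0 lower: Btrc, the substrate receptor of the ubiquitin ligase that marks Gli proteins for cleavage (0.72 ± 0.11, adjusted p = 0.00225), and Cul3, a scaffold of another such ligase (0.41 ± 0.09, adjusted p = 0.0127). Of 22 cilium genes, 9 rose and 3 fell on average, beside the 37.8% of all genes called, and 0 were higher and 1 lower in iFoxA1 at 24 h, beside 15.1%, namely Bbs2 of the BBSome (-0.79 ± 0.18, adjusted p = 0.0161). Of 6 tested genes for acylation, release and carriage of the ligand, the smallest adjusted p between lines at 24 h was that of Disp1 (-0.40 ± 0.14, adjusted p = 0.0913), and 4 rose and 1 fell on average. Disp1, which releases the lipid-bearing ligand, rose on average by 0.48 ± 0.11 (adjusted p = 0.00671), and Scube2, a carrier of released ligand, fell by 2.29 on the log2 scale (logFC -2.29 ± 0.52, adjusted p = 0.00747).

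The genes most like Shh, Ptch1 and Gli1 over the 17 libraries were taken by Pearson's correlation of log2(CPM + 1) among 11032 genes, as a description, since the libraries share lines and the 3 iFoxA1 libraries at 24 h stand apart. For Shh they were Popdc2 (0.997), Cd177 (0.992), Timp4 (0.980), Rgl1 (0.980) and Tll1 (0.979). For Ptch1 they were Lrig3 (0.978), Mgrn1 (0.961), Cdon (0.955), Tmem131l (0.952) and Baiap2l1 (0.940), and for Gli1 Mapkapk3 (0.894), Zfp219 (0.894), Mapk8ip2 (0.890), Lgals1 (0.873) and Arhgap8 (0.849). No gene was in 2 of these lists.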

How the data were processed

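Polyadenylated RNA went into strand-specific libraries, per the labels' protocols. The authors deposited estimated counts per transcript, not normalised, and TPM for the same transcripts. Salmon 1.4.0, DESeq2 1.30.1 and mm10 are named in the submitters' processing notes. The sources used here do not name the annotation behind the tables. Of 137271 transcripts, 137225 matched GENCODE M21 by identifier, 136349 with the same version. The remaining 46, with up to 0.0133% of a library's counts, were dropped. Estimated counts were summed per gene, rounded to whole numbers, filtered with filterByExpr (19819 genes kept), scaled with TMM and fitted in R 4.3.3 by the quasi-likelihood method of edgeR 4.0.16, in 1 model of 10 groups, each line at each time, with 7 residual degrees of freedom. Lone 0 h libraries were assumed to vary like the other groups. The comparison of deeper with shallower libraries used the 11 libraries at 24 h, with line as a term. The SE comes from the F statistic, and the threshold was an adjusted p of 0.05 (Benjamini-Hochberg) within each contrast. TPM served for levels of different genes and for limma 3.58.1 on log2(TPM + 1). DESeq2 1.42.0 and the other alternatives are given below. The self-test on simulated counts recovered changes put into iFoxA1 at 24 h, in genes of higher counts. No difference between library sets was simulated. The self-test does not cover genes with few counts, such as Ihh, Dhh and Hhip, or a gene near 0 counts at 0 h, such as Shh.

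The 9 genes and all lists were chosen with earlier results of these data known. From each list at most 4 genes with the smallest adjusted p in a contrast were named for that contrast, and T, Noto and Mir6236 in addition, after their values were seen. Likeness was computed over genes whose mean reached 5 CPM in some group. Intervals are exact at 95% and, like the floor of 3 counts over a group, cover counting error only.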

Additional observations from a re-analysis of the deposited data

Results flagged for a closer look

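By edgeR Gli1 changed differently in iFoxA1 than in the 4 other lines, each with 1 library at 0 h, in a call close to the threshold. Its change from 0 h in iFoxA1 minus the mean change of the others was -2.28 ± 0.49 on the log2 scale (adjusted p = 0.0406, edgeR), while 4 of 4 other lines had changes between -0.06 and 0.94. The call held in 4 of the 17 fits that left out 1 library, and limma on log2(TPM + 1) gave an adjusted p of 0.081. All 3 iFoxA1 libraries at 24 h were below both of that line's 0 h libraries. Beside it stand higher Shh in the same 3 libraries, more Ptch1 and Hhip, and among 10 ES cell markers 0 higher and 1 lower relative to the other lines' changes, with a median of 0.16 against -0.02 over all genes. The 1 called was Lin28a (-0.95 ± 0.16, adjusted p = 0.0197). Their part in the result was not tested.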

How the results depend on the processing

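The counts of the 9 genes past the threshold moved with the choice of libraries more than with the scaling. With the shallower libraries alone, and without both low-transgene libraries, the share of all genes called also rose in every comparison listed below. The larger counts under these choices were thus not particular to the 9 genes. With the 12 shallower libraries alone, which leave 2 residual degrees of freedom, 7 genes were called for the change in iFoxA1 (4 before), 5 for its line-specific change (1), 8 against the other lines at 24 h (5), 5 at 0 h (1), 8 for the difference among lines (5) and 18 over the 4 other lines' own changes (3), while the share of all genes called in the first of these also rose, to 47.2%. Without both low-transgene libraries, a choice made after seeing the data, the counts were 4 for the line-specific change, 2 at 0 h, 5 for the average (3), 8 for the difference among lines, 2 for deeper against shallower libraries (0) and 13 over the other lines. There Gli3 between deeper and shallower libraries turned to 0.33 (adjusted p = 0.00506) against -0.27 ± 0.28, and the cause was not tested. DESeq2 gave 3, 5, 1 and 6 for the line-specific, average, deeper and other-line counts, and left the adjusted p of Ihh at 0 h without a value. A term for the library set gave 2 for the line-specific change and 5 for the average. limma on log2(TPM + 1) gave 0 for the line-specific change, 2 for the difference among lines, 1 for deeper against shallower and 0 over the other lines; on that scale the median of all genes shifted by -0.22 between deeper and shallower libraries and by 0.11 in the iFoxP3 change. Without the low-count filter the deeper count was 2 and the other-line count 1. Leaving out 1 library gave 2 to 6 for the iFoxA1 change, 0 to 2 for the line-specific change, 5 to 6 at 24 h, 0 to 1 at 0 h, 3 to 5 for the average, 2 to 6 for the difference among lines, 0 to 1 for deeper libraries and 2 to 6 over the other lines. The iFoxA1 change was lowest without either iFoxA1 0 h library, the difference among lines without iFoxA1 24 h replicate 2, and the average was highest without iFoxA1 24 h replicate 3 and the other-line count without iFoxL2 24 h replicate 1. Shh, Ptch1, Hhip, Ihh and Gli1 against the other lines at 24 h kept their direction and passed in all 17 of these fits and in all 8 other alternatives. Same-numbered 24 h samples of the 4 other lines deviated together (correlations from 0.571 to 0.873). Replicate 2, deeper in those lines but shallower in iFoxA1, gave -0.673 to -0.566 against iFoxA1. These signs follow the library sets, so the check cannot tell whether the numbers pair the samples. With the replicate block the average count was 5 and no other count moved by over 1.5 times. For genes under about 10 counts in a library, such as Dhh, depth limits what a difference could show.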
